A study of Mus musculus with 6 samples.

Results

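The heat shock proteins and co-chaperones described here are those encoded by Hspa1a, Hspa1b, Hspa8, Hsph1, Hsp90aa1, Hsp90ab1, Dnajb1, Dnajb5, Hspb1 and Hspd1. Their members on the array are all probe sets whose only gene symbol is one of these 10, a probe set being the group of short oligonucleotides that measures a transcript on an Affymetrix array. They came to 21 probe sets for 9 of the 10 genes, out of 20380 probe sets with a single symbol for 12393 genes. Hsp90ab1, which encodes the constitutive HSP90, had 0 such probe sets and has no value here. A filter on dim signals kept 17 of the 21 for testing, from 8 genes. It left out both probe sets of Hspb1 and 2 of the 3 probe sets of Hspa1b.

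Heat shock proteins are chaperones that bind unfolded or newly made proteins and help them fold, and many of them are made in larger amounts when a cell is stressed. HSP70 proteins bind short exposed stretches of a client protein, their J-domain partners (the DNAJ proteins) deliver clients and start the ATP cycle, and exchange factors such as Hsph1 release the nucleotide. HSP90 proteins take over clients late in folding, among them the glucocorticoid receptor. In a stressed cell the transcription factor HSF1 binds heat shock elements, alternating inverted blocks of 3 bases in the promoters of these genes.

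The study took the paraventricular nucleus of the hypothalamus (PVN), whose neurons drive the pituitary stress axis and release oxytocin and vasopressin, from C57Bl/6 mice by laser microdissection of 7 µm sections. The groups are ECS 6 h and ECS 2 h, collected 6 h and 2 h after 1 electroconvulsive seizure (ECS; bilateral ear clips, isoflurane, 25 mA for 1 s, 100 pulses per s of 0.5 ms), and sham, handled alike without a shock and collected at 2 h. Each group holds 2 arrays. An array is a pool of 2 to 3 animals, and replicates 1 and 2 come from 2 runs with different animals, whose sex and age the labels do not give. With no sham group at 6 h, the 4 h difference in collection time and the time since the seizure cannot be told apart in the ECS 6 h values. Values are log2(signal + 16) after quantile normalization. A change is a difference of group means from limma with its standard error (SE), n = 2 arrays in every group, and the number of arrays limits the precision.

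Promoter stretches are shown first, because heat shock genes are known to respond through elements of this kind, and the members differed in whether these letters were found. RefSeq promoter windows (GRCm38.p6, 250 bases before to 50 after a transcription start) were found for 7 of the 10 genes, in 12 windows; Hspa8, Hsp90aa1 and Hsp90ab1 were not matched. A pair of blocks was searched as GAANNTTC or TTCNNGAA, and a run of 3 blocks as GAANNTTCNNGAA or TTCNNGAANNTTC, where N is any base. Each of these patterns also covers the other strand, and every run of 3 blocks contains pairs. A pair was in 15.1% of all 32851 windows and 3 blocks in 0.603%. Of the 7 genes, 5 had a window with a pair and 2, Hspd1 and Hsph1, had one with 3 blocks. Hspd1 had 3 blocks in 1 of its 2 windows and Hsph1 in 2 of 2. The shares above count windows and the genes had 1 to 3 windows each, so these gene counts cannot be set against them. The windows of Dnajb1 (2) and Dnajb5 (3) held none of these letters. In the stretches below, written 5′ to 3′ on the strand of the gene, capitals mark the blocks with the bases between them.
Hspa1a: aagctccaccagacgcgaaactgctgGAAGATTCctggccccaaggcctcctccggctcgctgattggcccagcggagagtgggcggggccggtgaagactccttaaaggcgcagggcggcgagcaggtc
Hspa1b: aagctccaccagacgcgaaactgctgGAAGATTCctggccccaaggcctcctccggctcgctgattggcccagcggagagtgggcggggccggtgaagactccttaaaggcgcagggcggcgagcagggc
Hspb1: gaGAAGTTTCcagatgggggcaGAACCTTC
Hspd1: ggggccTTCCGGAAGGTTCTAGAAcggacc
Hsph1: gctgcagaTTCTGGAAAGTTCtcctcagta

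The first stretch is the 130 bases before the start of Hspa1a (chr17:34972157-34972286, minus strand), and the second is the same interval before Hspa1b (chr17:34959239-34959368, minus strand). Both genes encode the stress-inducible HSP70. They lie side by side, and their windows differed at 4 of 300 bases, 1 of them in the stretch printed. The pair of blocks begins 104 bases before the start in both. The stretch of Hspb1 (chr5:135887800-135887829, plus strand) holds 2 pairs that begin 117 and 97 bases before its start. The stretch of Hspd1 (chr1:55088053-55088082, minus strand) holds overlapping runs of 3 blocks that begin 144 and 139 bases before a start. The stretch of Hsph1 (chr5:149636279-149636308, minus strand) lies after a start, where its 3 blocks run from base 16 to base 28 of that transcript. A match is a description of letters and was not tested as a binding site.

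Arrays and tissue differed in ways that touch the results. Replicate 1 of ECS 6 h stood apart, with a mean rank correlation with the other arrays of 0.887 (0.906 to 0.919 for the rest). Its 3′ to 5′ signal ratio of Gapdh was 14.1 (6.43 to 10.5 for the rest). Measured on Actb instead, its ratio of 0.764 fell inside the range of the remaining arrays (0.562 to 0.771). Of the PVN markers, Oxt, Avp, Trh and Sim1 read between 7.85 and 11.48 on the log2 scale on all arrays and had higher means in both ECS groups than in sham. Pou3f2, the other one tested, read between 4.69 and 5.99, with a change of -0.44 in ECS 6 h against sham and of -0.12 in ECS 2 h against sham. The 6 of 7 PVN markers measured summed to 5171 and 4565 in ECS 6 h, 4822 and 4548 in ECS 2 h, and 3780 and 3808 in sham. Markers of cortical and hippocampal neurons, a neighbouring tissue, summed to a signal of 432 and 1123 in ECS 6 h, 270 and 235 in ECS 2 h, and 2134 and 1722 in sham over the 6 of 9 measured. The 4 cortical and hippocampal markers tested had lower means in both ECS groups than in sham. Their median change was -1.22 in ECS 6 h and -2.55 in ECS 2 h. Among them, Tbr1 and Neurod1 passed the signal filter only with the sham arrays, where their means are highest. Their lower values are therefore no support for a difference, and the 2 medians include them. Neurod1 changed by -0.33 in ECS 2 h against sham, with overlapping arrays. General neuron markers had lower values in 10 of 10 cases, with medians of -0.25 in ECS 6 h and -0.42 in ECS 2 h. Oligodendrocyte markers, 7 of 8 measured, summed to 2439 and 2673 in ECS 6 h, 3084 and 2984 in ECS 2 h, and 3609 and 3300 in sham. Of the 5 tested, 4 were lower and 1 higher in ECS 6 h than in ECS 2 h. None of these markers passed the adjusted test. Their part in the values of the heat shock genes was not tested.

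No member passed the test in any comparison. At an adjusted p under 0.05 (Benjamini-Hochberg over all 12662 tested probe sets, two-sided limma), 0 of 17 member probe sets were called in ECS 2 h against sham, in ECS 6 h against sham and in ECS 6 h against ECS 2 h. The background was also 0% in each of the 3. The adjusted p of every tested member was 0.9992 in ECS 2 h against sham, 0.9997 in ECS 6 h against sham and 0.9991 in ECS 6 h against ECS 2 h, where the smallest of any probe set was 0.052 in the first, 0.9997 in the second and 0.688 in the third. When the run (the replicate number) entered the fit as a block, 4 of 12662 probe sets (0.0316%) were called in ECS 2 h against sham, 0 (0%) in the other two, and 0 members in all 3. All changes of members below are therefore descriptions with their errors.

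Within that limit the members divided into 2 kinds by brightness, with a line at a mean log2 value of 10 that was chosen after the values were seen. The 10 probe sets above 10 belong to Hspa8, Hsph1, Hsp90aa1, Dnajb1 and Hspd1, and their changes in the 3 comparisons lay between -0.34 and 0.17. The 7 at or below 10 belong to Hspa1a, Hspa1b, Hspa8, Dnajb1 and Dnajb5. All 7 were lower in ECS 6 h than in ECS 2 h, by 0.84 to 1.63 on the log2 scale, and in each of the 7 both ECS 6 h arrays lay below both ECS 2 h arrays. Among all 11807 tested probe sets at or below 10, 15.2% had arrays apart in that direction, and 50.8% were lower. The median SE was 0.415 for those 11807 probe sets and 0.192 for the 855 above 10, so dim members also carry the larger error. The 7 probe sets are not independent, since 3 measure Dnajb5 and all share the same 4 arrays. Among them, Dnajb1 1416756_at passed the signal filter only with the ECS 2 h arrays, where it is high. In bulk tissue such as this, fewer cells of a type and less RNA per cell cannot be told apart.

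**Figure D1:**
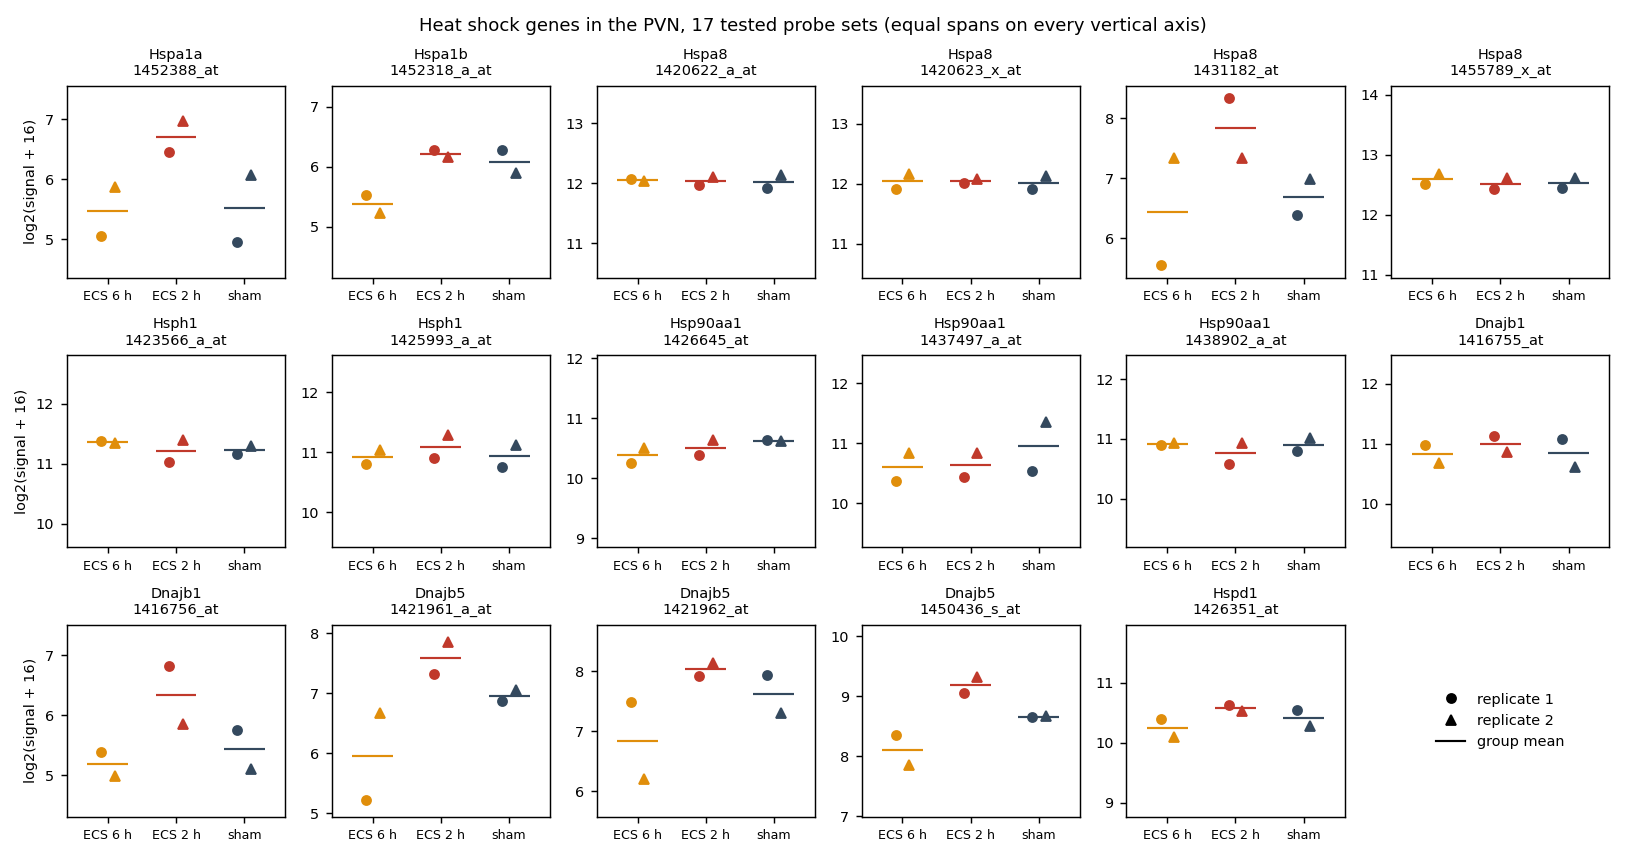
Normalised log2(signal + 16) of each of the 17 tested probe sets on the 6 arrays, with ECS 6 h left, ECS 2 h in the middle and sham right; circles are replicate 1, triangles replicate 2, and bars group means. The vertical axes have equal spans, so the nearly level panels of Hspa8 1420622_a_at and Hsph1 can be set against the spread of Dnajb5 and Hspa1a.

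Hspa1a, the inducible HSP70 (chr17:34969359-34972156 in GRCm38.p6), was measured by 1 probe set, 1452388_at. It read 5.06 and 5.87 in ECS 6 h, 6.45 and 6.97 in ECS 2 h, and 4.95 and 6.08 in sham. Both ECS 2 h arrays lay above all 4 others, while ECS 6 h and sham overlapped. As deposited, before any scaling, the signals were 15.4 and 49.1 in ECS 6 h, 58.5 and 116.8 in ECS 2 h, and 12.9 and 66.9 in sham, all in the lower part of the array's range, where the offset of 16 makes differences smaller. Hspa1a was higher in ECS 2 h than in sham by 1.19 ± 0.504 (SE; 95% interval 0.0792 to 2.31; 2.29-fold; limma adjusted p = 0.9992, unadjusted p = 0.0381). Within the runs the difference was 1.50 in replicate 1 and 0.89 in replicate 2, and leaving out single arrays moved it between 0.64 and 1.74, both ends being sham arrays left out.

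The 6 h level of Hspa1a was close to that of sham. The change in ECS 6 h against sham was -0.05 ± 0.504, with an interval of -1.17 to 1.06, and it turned to 0.50 without sham replicate 2 and to 0.36 without ECS 6 h replicate 1. The change in ECS 6 h against ECS 2 h was -1.24 ± 0.504 (limma unadjusted p = 0.0319), with differences of -1.39 and -1.10 in the 2 runs. That change was -1.67 with an offset of 1 and -0.72 with an offset of 64.

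Hspa1b, its neighbour (chr17:34956429-34959238), has 3 probe sets. Since the transcripts of Hspa1a and Hspa1b are nearly identical, how much of either signal comes from the other gene is uncertain. The tested probe set, 1452318_a_at, read 5.53 and 5.23 in ECS 6 h, 6.28 and 6.16 in ECS 2 h, and 6.27 and 5.89 in sham. Here the 2 ECS 6 h arrays were the lowest of the 6, and ECS 2 h overlapped sham. The change was 0.13 ± 0.404 in ECS 2 h against sham, -0.70 ± 0.404 in ECS 6 h against sham and -0.84 ± 0.404 in ECS 6 h against ECS 2 h. The first of these became -0.06 without sham replicate 2. The other probe sets, 1427126_at and 1427127_x_at, stayed between 4.25 and 4.71 and between 4.33 and 4.99 over all 6 arrays. An array value of 4 is a signal of 0 on this scale, and neither reached the median of any array.

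Hspa8 encodes HSC70, the constitutive HSP70 of the cytosol (chr9:40801276-40805202), and 3 of its 4 probe sets were among the brighter members. The probe set 1455789_x_at read 12.52 and 12.67 in ECS 6 h, 12.43 and 12.61 in ECS 2 h, and 12.45 and 12.61 in sham. The groups overlapped, and the change was -0.01 ± 0.111 in ECS 2 h against sham (95% interval -0.26 to 0.24) and 0.07 ± 0.111 in ECS 6 h against sham (-0.18 to 0.31). The probe set 1420622_a_at gave 0.01 ± 0.122 and 0.03 ± 0.122, and 1420623_x_at gave 0.03 ± 0.132 and 0.02 ± 0.132 in the same comparisons. The direction of each of these small values depended on the arrays kept. The suffix x marks probe sets that may also bind other transcripts.

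The fourth Hspa8 probe set, 1431182_at, behaved differently from those 3. It read 5.55 and 7.34 in ECS 6 h, 8.33 and 7.34 in ECS 2 h, and 6.39 and 6.99 in sham. Replicate 1 of ECS 2 h was high and replicate 1 of ECS 6 h low, while replicate 2 of the 2 groups coincided. The change was 1.15 ± 0.573 in ECS 2 h against sham, with 1.95 in replicate 1 and 0.35 in replicate 2. In ECS 6 h against ECS 2 h it was -1.39 ± 0.573, with -2.78 in replicate 1 and -0.0019 in replicate 2, and -0.49 without replicate 1 of ECS 6 h. The ECS 6 h change against sham, -0.24 ± 0.573, became 0.64 without that array. The files do not say which Hspa8 transcripts this probe set binds.

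Hsph1, an HSP110 protein that acts as an exchange factor for HSP70 (chr5:149616843-149636498), had 2 bright probe sets. The probe set 1423566_a_at read 11.37 and 11.34 in ECS 6 h, 11.02 and 11.39 in ECS 2 h, and 11.15 and 11.29 in sham. Both ECS 6 h arrays were above both sham arrays, by 0.13 ± 0.164 on average. ECS 2 h overlapped both other groups and differed from sham by -0.02 ± 0.164. The second, 1425993_a_at, ran between 10.75 and 11.28, with changes of 0.15 ± 0.198 in ECS 2 h against sham and -0.02 ± 0.198 in ECS 6 h against sham. Its 2 values per group differed by run, replicate 2 being the higher in all 3 groups.

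Hsp90aa1, the inducible HSP90 (chr12:110691036-110696395), had 3 probe sets, all bright. The probe set 1426645_at read 10.26 and 10.51 in ECS 6 h, 10.39 and 10.63 in ECS 2 h, and 10.64 and 10.62 in sham. The ECS 6 h arrays lay below both sham arrays, with a change of -0.24 ± 0.192, and ECS 2 h overlapped both groups. The probe set 1437497_a_at differed from sham by -0.32 ± 0.276 in ECS 2 h and by -0.34 ± 0.276 in ECS 6 h. Both differences rested on sham replicate 2, which read 11.36 against 10.54 in sham replicate 1, and without it they were 0.097 in ECS 2 h and 0.068 in ECS 6 h. The third, 1438902_a_at, gave -0.15 ± 0.184 and 0.01 ± 0.184.

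Of the members, Dnajb5 had the 2 smallest unadjusted p-values between the times after the seizure. It encodes a DNAJ protein close to Dnajb1 (chr4:42949867-42959425), and its probe set 1450436_s_at read 8.36 and 7.86 in ECS 6 h, 9.05 and 9.33 in ECS 2 h, and 8.66 and 8.66 in sham. The ECS 2 h arrays were above, and the ECS 6 h arrays below, both sham arrays. The probe set 1421961_a_at gave the same order of groups, with 5.22 and 6.67 in ECS 6 h, 7.31 and 7.85 in ECS 2 h, and 6.87 and 7.05 in sham. In 1421962_at sham overlapped both other groups, with 7.48 and 6.21 in ECS 6 h, 7.92 and 8.14 in ECS 2 h, and 7.94 and 7.31 in sham.

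Each of the 3 Dnajb5 probe sets was higher in ECS 2 h and lower in ECS 6 h than in sham on average. In ECS 2 h against sham the changes were 0.53 ± 0.304 for 1450436_s_at, 0.62 ± 0.483 for 1421961_a_at and 0.40 ± 0.451 for 1421962_at. In ECS 6 h against sham they were -0.55 ± 0.304, -1.01 ± 0.483 and -0.78 ± 0.451 in the same order. Both comparisons use the same sham arrays. In ECS 6 h against ECS 2 h they were -1.08 ± 0.304 (2.12-fold lower), -1.63 ± 0.483 and -1.19 ± 0.451. The unadjusted p in limma was 0.0047 for 1450436_s_at, 0.0064 for 1421961_a_at and 0.0239 for 1421962_at, and the adjusted p 0.9991 for each. The direction held in both runs for each probe set, the smallest being -0.44 for 1421962_at in replicate 1 and the largest -2.09 for 1421961_a_at in replicate 1.

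Averaged over its 3 probe sets on each array, Dnajb5 read 7.02 and 6.91 in ECS 6 h, 8.09 and 8.44 in ECS 2 h, and 7.82 and 7.67 in sham. The 3 groups did not overlap on this mean. The share of all gene means with such an order was not counted. The change in ECS 6 h against ECS 2 h was -1.30 ± 0.282, with an unadjusted p of 0.000912 that ranked 9 among 8337 genes and other features and an adjusted p of 0.845 in limma. The SE of this mean is below the 0.304 to 0.483 of its single probe sets. Since other features rest on 1 probe set, the rank compares unlike measures. Against sham the gene mean differed by 0.52 ± 0.282 in ECS 2 h and by -0.78 ± 0.282 in ECS 6 h.

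Dnajb1, the main J-domain partner of HSP70 in the heat shock response (chr8:83608175-83612653), was measured by a bright and a dim probe set that did not give the same picture. The bright one, 1416755_at, read 10.98 and 10.68 in ECS 6 h, 11.13 and 10.87 in ECS 2 h, and 11.08 and 10.62 in sham. Its groups overlapped, with changes of 0.15 ± 0.206 in ECS 2 h against sham, -0.02 ± 0.206 in ECS 6 h against sham and -0.17 ± 0.206 in ECS 6 h against ECS 2 h. The dim one, 1416756_at, read 5.38 and 4.99 in ECS 6 h, 6.82 and 5.85 in ECS 2 h, and 5.75 and 5.10 in sham. Both ECS 2 h arrays were above all others there. The change was 0.91 ± 0.488 in ECS 2 h against sham and -1.15 ± 0.488 in ECS 6 h against ECS 2 h (limma unadjusted p = 0.0387). This dim probe set reached the median of its array on 3 arrays, both of ECS 2 h and sham replicate 1. It passed the signal filter only with the group where it is high, so its separation is no support for a change. The change in ECS 6 h against ECS 2 h was -0.63 with an offset of 64.

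Hspb1 encodes HSP25, a small heat shock protein that holds unfolded proteins without ATP (chr5:135887919-135889563), and neither of its probe sets was bright enough to be tested. The probe set 1422943_a_at read 4.40 and 5.01 in ECS 6 h, 5.80 and 5.38 in ECS 2 h, and 5.38 and 5.00 in sham. Both ECS 6 h arrays lay below both ECS 2 h arrays there, and sham overlapped both groups. The probe set 1425964_x_at read 4.45 and 4.68 in ECS 6 h, 5.57 and 4.08 in ECS 2 h, and 4.31 and 4.83 in sham. Each reached its array's median on 1 array of 6, so a change of Hspb1 was not tested, and values this dim are uncertain.

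Hspd1, the mitochondrial chaperonin HSP60 (chr1:55077833-55088243), read 10.40 and 10.09 in ECS 6 h, 10.63 and 10.52 in ECS 2 h, and 10.54 and 10.27 in sham on its probe set 1426351_at. Both ECS 6 h arrays lay below both ECS 2 h arrays, and sham overlapped both. The change was 0.17 ± 0.204 in ECS 2 h against sham, -0.16 ± 0.204 in ECS 6 h against sham and -0.33 ± 0.204 in ECS 6 h against ECS 2 h. Its promoter stretch with 3 blocks is printed above. Hspe1, the cochaperonin HSP10 that closes the HSP60 barrel and is transcribed from the other side of the same promoter region, read 10.82 and 10.61 in ECS 6 h, 10.84 and 11.31 in ECS 2 h, and 10.67 and 10.57 in sham. It was higher in ECS 2 h than in sham by 0.46 ± 0.197 (limma unadjusted p = 0.0419) and its change in ECS 6 h against ECS 2 h was -0.36 ± 0.197.

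**Figure D2:**
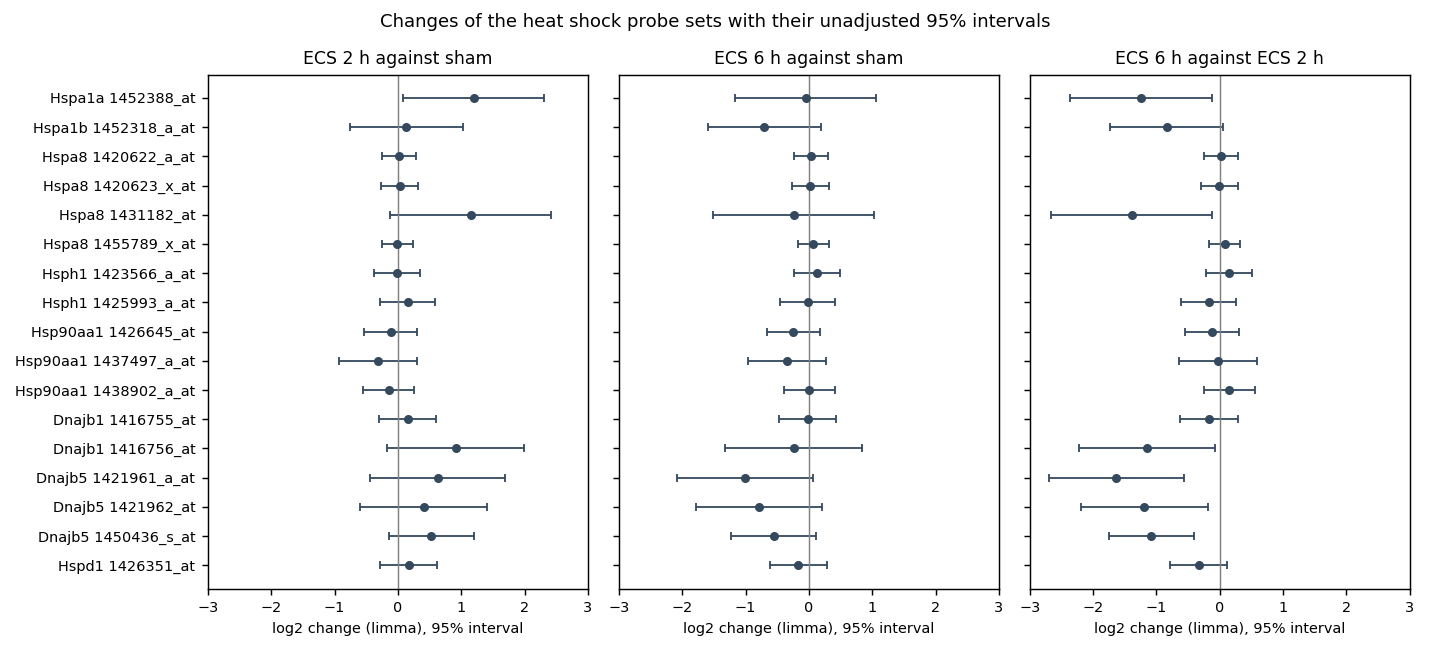
Log2 change of each of the 17 tested probe sets (points) with its unadjusted 95% interval from limma (bars), for ECS 2 h against sham, ECS 6 h against sham and ECS 6 h against ECS 2 h; positive values are higher in the group named first. In ECS 2 h against sham 1 interval, that of Hspa1a, lies apart from 0, in ECS 6 h against sham 0 do, and in ECS 6 h against ECS 2 h 6 do, all on the lower side.

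Counted together, 12 of the 17 member probe sets were higher and 5 lower in ECS 2 h than in sham, with a median change of 0.15 against 0.0077 over all tested probe sets. In 5 members both ECS 2 h arrays lay above both sham arrays, against a background of 16.3%, and in 0 members below, against 16.4%. The 5 were Hspa1a 1452388_at, Hspa8 1431182_at, Dnajb1 1416756_at and 2 probe sets of Dnajb5. The Dnajb1 probe set passed the signal filter only with the ECS 2 h arrays, where it is high. At an unadjusted p under 0.05 there was 1 member, Hspa1a, among the 1.72% of all probe sets that were higher and the 4% in either direction. With the replicate block, which raised that background to 6.52%, 2 members passed the same line, Hspa1a (unadjusted p = 0.0125) and Hsp90aa1 1437497_a_at, the second with a lower value.

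In ECS 6 h against sham, 5 member probe sets were higher and 12 lower, with a median of -0.16 against -0.0032 over all, although the median turned to 0.06 without sham replicate 2. The arrays lay apart on the higher side for 1 member, Hsph1 1423566_a_at (background 14.8%), and on the lower side for 4 (background 15.3%), namely Hspa1b 1452318_a_at, Hsp90aa1 1426645_at and 2 probe sets of Dnajb5. None of the 17 had an unadjusted p under 0.05 in limma (0 members, background 3.76%). With the block the background was 6.27% and 2 members passed that line, Dnajb5 1421961_a_at and Hsp90aa1 1437497_a_at, both lower.

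In ECS 6 h against ECS 2 h, 4 member probe sets were higher and 13 lower, with a median of -0.17 against -0.0081 over all. Without scaling between arrays the members' median became 0.04, where that of all probe sets was 0.16. Both ECS 6 h arrays lay below both ECS 2 h arrays in 8 of 17 members, against a background of 15%, and above them in 0, against 14.4%. The 8 are the 7 dimmer probe sets and Hspd1. An unadjusted p under 0.05 was found for 6 members, all lower, where 1.83% of all probe sets were lower at that line and 3.44% were past it in either direction. These 6 come from 4 genes, since 3 are probe sets of Dnajb5 and the others measure Hspa1a, Hspa8 and Dnajb1. The Dnajb1 probe set, also among the 8, passed the signal filter only with the ECS 2 h arrays. With the block, 7 members passed that line, against a background of 5.69%.

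**Figure D3:**
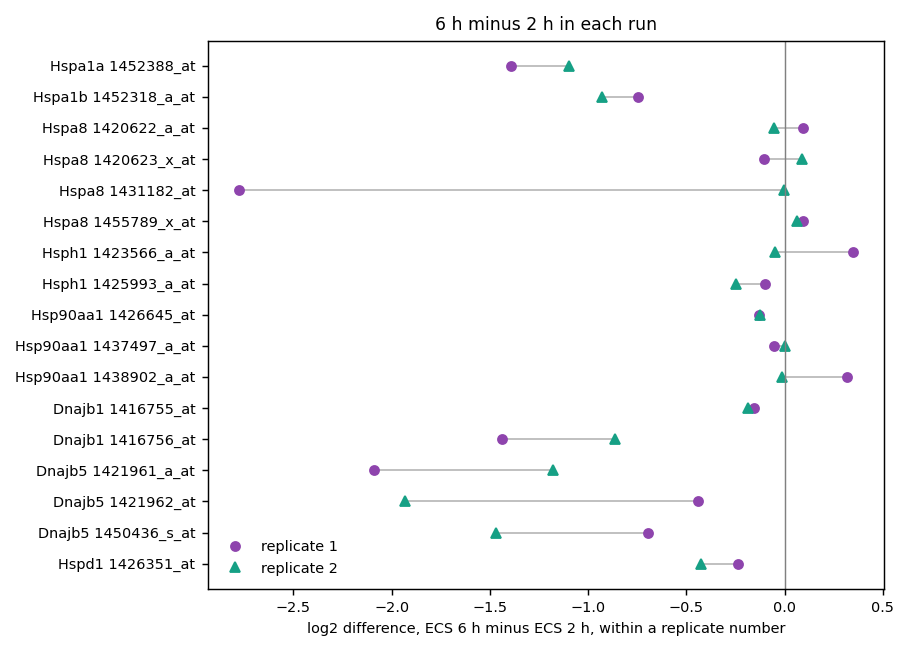
Log2 difference of ECS 6 h minus ECS 2 h within each replicate number for the 17 tested probe sets; circles are replicate 1, triangles replicate 2, and a grey line joins them. Both runs lie below 0 for the probe sets of Dnajb5, Hspa1a, Hspa1b, Dnajb1 and Hspd1. The same holds for Hsp90aa1 1426645_at and Hsph1 1425993_a_at. Hspa8 1431182_at reaches -2.78 in replicate 1 and lies at about 0 in replicate 2.

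Replicate 1 of ECS 6 h, the array that stood apart, was the lowest of the 6 arrays in 4 of the 17 tested members, and replicate 2 of ECS 6 h in 5. Replicate 1 of sham was likewise the lowest in 4, replicate 1 of ECS 2 h in 3 and replicate 2 of sham in 1. Replicate 1 of ECS 2 h was the highest in 5 of the 17 and its replicate 2 in 6. Replicate 2 of sham was the highest in 3. The shares of these ranks over all tested probe sets were not counted. Without replicate 1 of ECS 6 h, the change in ECS 6 h against ECS 2 h was -1.32 for Dnajb5 1450436_s_at, -0.89 for 1421961_a_at, -1.80 for 1421962_at and -0.82 for Hspa1a. The direction of the 7 dimmer members in that comparison was the same without any 1 array and under each scaling tried.

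The other genes of the chaperone network were taken from 8 lists, 1 probe set (the one with the highest mean signal) standing for each gene, and 0 genes of any list were called in any comparison. Among 7332 tested genes the median change was 0.013 in ECS 2 h against sham, -0.0022 in ECS 6 h against sham and -0.0076 in ECS 6 h against ECS 2 h. For every gene named from here on the limma adjusted p missed 0.05.

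The HSP70 partners showed no common direction. Of 16 tested co-chaperones and exchange factors of HSP70, 10 were higher and 6 lower in ECS 2 h than in sham (median 0.055), and 8 were higher and 8 lower in ECS 6 h (median 0.059). Stub1, the ubiquitin ligase that sends HSP70 clients to the proteasome, read 9.89 and 9.91 in ECS 6 h, 9.54 and 9.50 in ECS 2 h, and 9.20 and 9.39 in sham, and its change in ECS 6 h against sham was 0.61 ± 0.231. Bag2, an exchange factor that holds Stub1 back, read 6.21 and 5.88 in ECS 6 h against 4.64 and 5.19 in ECS 2 h. Its change was 1.12 ± 0.457, opposite to that of Hspa1a and Dnajb5. Bag2 passed the signal filter only with the ECS 6 h arrays, where it is high. Of 6 other HSP70 and HSP110 genes, 3 were higher and 3 lower at each time against sham. Hspa2, an HSP70 gene best known from the testis, read 8.33 and 8.01 in ECS 6 h, 8.06 and 7.94 in ECS 2 h, and 8.67 and 9.14 in sham, with changes of -0.73 ± 0.318 and -0.90 ± 0.318 against sham in ECS 6 h and ECS 2 h.

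Among 11 tested HSP90 co-chaperones, 8 were higher and 3 lower in ECS 2 h against sham (median 0.12), 6 were higher and 5 lower in ECS 6 h against sham (median 0.08), and 2 were higher and 9 lower in ECS 6 h against ECS 2 h (median -0.06). Fkbp5, which lowers the hormone affinity of the glucocorticoid receptor and is itself induced by glucocorticoids, read 6.71 and 6.17 in ECS 6 h, 6.63 and 6.33 in ECS 2 h, and 6.18 and 5.42 in sham. It differed from sham by 0.64 ± 0.424 in ECS 6 h and by 0.68 ± 0.424 in ECS 2 h. Both ECS 2 h arrays lay above both sham arrays, and ECS 6 h overlapped sham. Of the CCT and prefoldin genes, which fold actin and tubulin, 10 of 13 were higher in ECS 2 h than in sham (median 0.12) and 8 of 13 in ECS 6 h (median 0.01). Cct6a had the smallest unadjusted p of these in ECS 2 h against sham, with 11.06 and 11.18 in ECS 2 h against 10.62 and 10.91 in sham and a change of 0.36 ± 0.174.

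Of 10 mitochondrial chaperones and proteases, Hspe1 included, 6 were higher and 4 lower in ECS 2 h than in sham (median 0.10), and 3 were higher and 7 lower in ECS 6 h than in ECS 2 h (median -0.25). Lonp1, the matrix protease, read 6.21 and 7.10 in ECS 6 h, 7.53 and 7.40 in ECS 2 h, and 5.73 and 7.06 in sham, and was higher in ECS 2 h than in sham by 1.07 ± 0.489. Clpb, a disaggregase of the space between the mitochondrial membranes, differed in the other direction between the times, with 6.01 and 6.81 in ECS 6 h against 4.75 and 5.12 in ECS 2 h and a change of 1.48 ± 0.452 (limma unadjusted p = 0.0078). Among the small heat shock proteins, 6 of 8 were measured and 2 tested. Cryab, alpha B crystallin, differed from sham by -0.66 ± 0.43 in ECS 6 h and by -0.74 ± 0.43 in ECS 2 h, and Hspb8 by -0.22 ± 0.406 and 0.22 ± 0.406. Of the heat shock factors and their binding protein, 3 of 5 were measured and 2 tested, Hsf2 and Hsbp1, and Hsbp1 read between 10.23 and 10.35 on all 6 arrays.

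**Figure D4:**
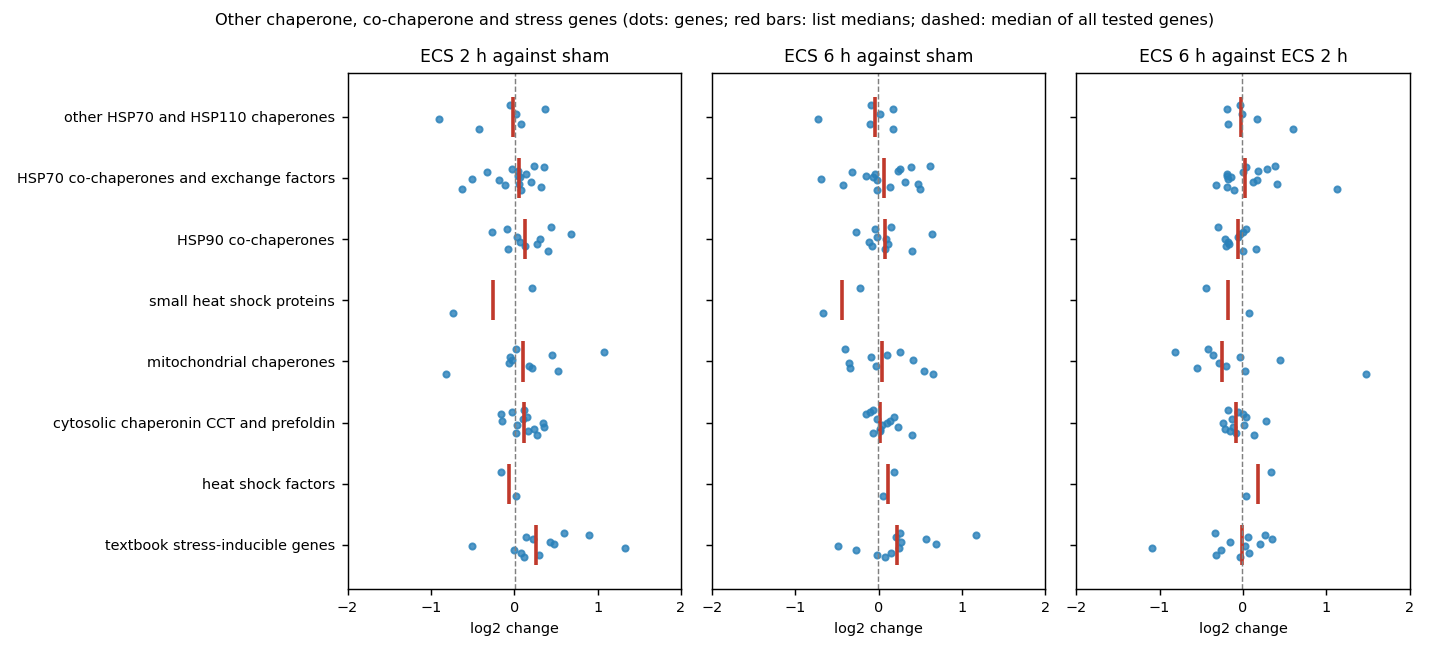
Log2 change of each tested gene (dots) in 8 lists of chaperones, co-chaperones and stress genes for the 3 comparisons, with the median of each list (red bars) and of all 7332 tested genes (dashed line). The list medians lie between -0.44 and 0.26, and in ECS 2 h against sham the stress-inducible genes have the highest one.

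Textbook stress-inducible genes outside the heat shock families made up the last list. Of its 12 members with a test, 10 were higher and 2 lower in ECS 2 h than in sham (median 0.26) and 9 were higher and 3 lower in ECS 6 h than in sham (median 0.22). Gadd45b, a sensor of stress and neuronal activity that takes part in DNA demethylation, read 5.31 and 5.60 in ECS 6 h, 6.19 and 6.90 in ECS 2 h, and 5.37 and 5.06 in sham. Both ECS 2 h arrays lay above the 4 others. The change was 1.33 ± 0.439 in ECS 2 h against sham (limma unadjusted p = 0.0119) and -1.09 ± 0.439 in ECS 6 h against ECS 2 h. Apart from ECS 2 h, only ECS 6 h replicate 2 reached its array median. Gadd45b thus passed the signal filter only with the group where it is high, and its separation is no support for a change. Srxn1, sulfiredoxin, which repairs oxidised peroxiredoxins, was higher at both times, with 9.23 and 10.09 in ECS 6 h, 9.26 and 9.53 in ECS 2 h, and 8.61 and 8.38 in sham. Its changes against sham were 1.17 ± 0.321 in ECS 6 h and 0.90 ± 0.321 in ECS 2 h (limma unadjusted p = 0.0041 and 0.0175). Mt1 and Mt2, metallothioneins that bind zinc, differed from sham in ECS 2 h by 0.48 ± 0.376 and 0.43 ± 0.313. In ECS 6 h Mt1 differed from sham by 0.68 ± 0.376, but the arrays overlapped (10.10 and 9.01 against 9.23 and 8.51 in sham). The mean of Mt2 was 9.13 in ECS 6 h and 8.86 in sham, and its arrays overlapped too.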

How the data were processed

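The authors deposited intensity values computed with MAS5 (version and settings not stated), per the submitters' processing notes, for 6 mouse Affymetrix arrays. Ovation Pico WTA amplification started from 2 ng of RNA, and 5 µg of cDNA went on each array, per the labels' protocols. The values of the 22690 probe sets are linear, and array medians ran from 25.2 to 40.8. Here 64 control probe sets were dropped, 16 was added, log2 was taken of the deposited values, and arrays were quantile normalized. Testing was limited to 12662 of 22626 probe sets (56%) that reached the median of their array on 2 or more of the 6 arrays. The test was limma 3.58.1 (R 4.3.3) with 3 group means over all arrays and the variance trend on (7.64 prior and 3 residual degrees of freedom). P-values were two-sided, with Benjamini-Hochberg adjustment at 0.05 over all tested probe sets. Fold changes are on the log2(signal + 16) scale and understate changes of dim probe sets.

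Symbols came from the array's annotation and RefSeq (GRCm38.p6). The members and gene lists were chosen with earlier results of these data known. Every member probe set is described, and from each other list the text names genes among the 3 with the smallest unadjusted p in a comparison. Deviations from group means correlated between same-numbered arrays by 0.152, 0.229 and 0.185 across 12662 probe sets, so the numbers, which mark the 2 runs, pair the arrays, and a blocked fit was an alternative. Others changed the offset (1, 64), the scaling, the filter, the variance model and the arrays in the fit, averaged a gene's probe sets, or left out each array. The procedure was tested on simulated data. Probe sets were sorted by mean signal to choose 1 per gene in the lists and to describe bright and dim members, and no expression level of a gene was read from that order. Since arrays are pools, p-values measure the spread between pools.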

Additional observations from a re-analysis of the deposited data

Results flagged for a closer look

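In 2 Dnajb5 probe sets, both ECS 2 h arrays lay above and both ECS 6 h arrays below both sham arrays. The difference between the effects at the 2 times is the change in ECS 6 h against ECS 2 h, which was -1.63 for 1421961_a_at and -1.08 for 1450436_s_at. It was tested in limma and did not pass (adjusted p = 0.9991 for both). Of the 12662 tested probe sets, 125 (0.987%) had this order of the 3 groups, and 235 (1.86%) lay on opposite sides of sham in either order.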

How the results depend on the processing

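The 17 tested members gave 857 values under the alternatives, of which 796 kept their direction, 61 changed sign and 0 passed the adjusted threshold. The number of member probe sets called was 0 under every alternative run, the replicate block included. Over all probe sets, the calls in ECS 2 h against sham, 0 in the fit described, were 1 with the values as deposited, 1 with median subtraction, 2 with array weights, 4 with the replicate block, 7 with only the 4 arrays of the comparison, and 0 to 10 when an array was left out, 10 being reached without either ECS 6 h array. Leaving out an array gave 0 to 6 calls in ECS 6 h against sham and 0 to 3 in ECS 6 h against ECS 2 h, the highest of each without replicate 2 of ECS 6 h. The median of all probe sets moved to 0.10 with median subtraction in ECS 6 h against sham and to 0.16 without scaling in ECS 6 h against ECS 2 h, so changes under these settings are read relative to that. With the values as deposited, the sign turned in ECS 6 h against sham for Hsph1 1425993_a_at (0.19), Dnajb1 1416755_at (0.18) and Hspd1 1426351_at (0.014). With the values as deposited, the sign turned in ECS 6 h against ECS 2 h for Hspa8 1420623_x_at (0.19), Hsph1 1425993_a_at (0.044), Hsp90aa1 1426645_at (0.062), Hsp90aa1 1437497_a_at (0.17) and Dnajb1 1416755_at (0.042). With median subtraction, the sign turned in ECS 2 h against sham for Hspa8 1455789_x_at (0.11) and Hsph1 1423566_a_at (0.083). With median subtraction, the sign turned in ECS 6 h against sham for Hsph1 1425993_a_at (0.22), Dnajb1 1416755_at (0.21) and Hspd1 1426351_at (0.039). With median subtraction, the sign turned in ECS 6 h against ECS 2 h for Hspa8 1420623_x_at (0.099) and Hsp90aa1 1437497_a_at (0.079). With 2% trimmed mean scaling, the sign turned in ECS 2 h against sham for Hspa8 1455789_x_at (0.074) and Hsph1 1423566_a_at (0.048). With 2% trimmed mean scaling, the sign turned in ECS 6 h against sham for Hsph1 1425993_a_at (0.077) and Dnajb1 1416755_at (0.065). When arrays were left out, values that changed sign ran in ECS 2 h against sham from -0.056 to 0.33 for Hspa1b 1452318_a_at, from -0.099 to 0.12 for Hspa8 1420622_a_at, from -0.088 to 0.14 for Hspa8 1420623_x_at, from -0.11 to 0.083 for Hspa8 1455789_x_at, from -0.20 to 0.16 for Hsph1 1423566_a_at, from -0.034 to 0.35 for Hsph1 1425993_a_at, from -0.23 to 0.0036 for Hsp90aa1 1426645_at, from -0.72 to 0.097 for Hsp90aa1 1437497_a_at, from -0.32 to 0.037 for Hsp90aa1 1438902_a_at and from -0.080 to 0.38 for Dnajb1 1416755_at. When arrays were left out, values that changed sign ran in ECS 6 h against sham from -0.63 to 0.50 for Hspa1a 1452388_at, from -0.083 to 0.14 for Hspa8 1420622_a_at, from -0.10 to 0.14 for Hspa8 1420623_x_at, from -1.13 to 0.64 for Hspa8 1431182_at, from -0.011 to 0.15 for Hspa8 1455789_x_at, from -0.20 to 0.17 for Hsph1 1425993_a_at, from -0.75 to 0.068 for Hsp90aa1 1437497_a_at, from -0.10 to 0.11 for Hsp90aa1 1438902_a_at, from -0.25 to 0.21 for Dnajb1 1416755_at and from -0.55 to 0.084 for Dnajb1 1416756_at. When arrays were left out, values that changed sign ran in ECS 6 h against ECS 2 h from -0.040 to 0.076 for Hspa8 1420622_a_at, from -0.12 to 0.11 for Hspa8 1420623_x_at, from -0.014 to 0.18 for Hspa8 1455789_x_at, from -0.031 to 0.33 for Hsph1 1423566_a_at, from -0.36 to 0.014 for Hsph1 1425993_a_at, from -0.26 to 0.20 for Hsp90aa1 1437497_a_at and from -0.032 to 0.33 for Hsp90aa1 1438902_a_at. The cause of these turns was not tested. Averaging probe sets within a gene gave values for genes and not for single probe sets. Dim signal limits Hspb1 and 2 of the Hspa1b probe sets, and 2 arrays per group limit all others.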
